A study of Drosophila melanogaster with 27 samples.

Results

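The levels of 9 genes of the blood cells and the melanization response of *Drosophila melanogaster* are described here in whole adult males of inbred sublines and of their outbred control. The genes were PPO1, PPO2, lz, Spn28Dc, Hml, NimC1, eater, Pxn and NimB2, taken through every probe set of the array whose annotation gives 1 of them as its single gene. This gave 10 probe sets, 2 of them for Pxn, of 18769 in all, and 9 genes of the 11983 that the array reads by a single-gene probe set. PPO1 was chosen by its difference between the inbred flies and the control, so that comparison is given below as a description with no test. The values are log2 expression from Affymetrix Drosophila Genome 2.0 arrays, so a difference of 1 is a doubling, and levels of different probe sets are not set against each other.

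The study asked which changes of expression go with inbreeding depression, the loss of fitness under inbreeding. The 27 arrays fell into 9 groups of 3: the most depressed (+D) and the least depressed (-D) sublines of lines 5, 7, 12 and 15, and the outbred control. Each line descended from 1 couple of the base population, collected at Vigo in Spain, and its sublines went through 8 generations of sib mating, to an inbreeding coefficient of about 0.7, with no transgene or treatment in any group. The control came from the same base population, all flies were reared under continuous light and each array held a pool of 30 males. Each inbred array was another subline, so the spread within a group of a line is that between sublines of the same founders. The sublines were ranked by the pupae that a female produced, and a most depressed subline had to have enough flies left for the extraction.

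Blood cells of the fly, the hemocytes, are of 3 kinds. Plasmatocytes are phagocytes that also secrete clotting and matrix proteins, crystal cells store the prophenoloxidases of melanization, and lamellocytes, seen mainly in larvae, wrap foreign bodies too large to engulf. In melanization, a cascade of serine proteases held in check by serpins turns prophenoloxidase into phenoloxidase, which forms melanin at wounds and around parasites. PPO1 and PPO2 encode both prophenoloxidases of the crystal cell, lz a RUNX factor that sets the fate of that cell, and Spn28Dc a serpin that restrains melanization. Hml encodes hemolectin of the clot, NimC1 and eater receptors for phagocytosis, Pxn a peroxidase of the extracellular matrix, and NimB2 a secreted protein of the Nimrod family to which NimC1 and eater also belong.

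Of the 10 probe sets, 8 were kept by the filter on low values, which took the probe sets whose maximum over the 27 arrays was in the upper part of the array, at 7.06 or above. The probe set of eater lay just inside, with a maximum of 7.32. The probe set of lz and the second probe set of Pxn lay far below, with maxima of 4.02 and 3.72, and their means were at percentiles 7.71 and 4.13 of all probe sets. Whole males were pooled, so the markers of blood cells only show whether a transcript was seen. Besides the 9 genes, the plasmatocyte gene crq was between 9.46 and 10.39, the blood cell GATA factor srp between 7.81 and 8.66 and the lamellocyte gene atilla between 10.65 and 11.71, whereas He of plasmatocytes and PPO3 and ItgaPS4 of lamellocytes stayed at or under 4.51 on every array. None of these is restricted with certainty to blood cells in a whole fly. Yolk and eggshell transcripts were found on some arrays labelled as male, with eggshell transcripts high in line 5 +D replicate 3, line 7 +D replicate 2 and line 15 +D replicate 2, and the yolk gene Yp1 high also in line 5 -D replicate 2, line 15 -D replicate 1 and control replicate 3 (10.7, 12.2 and 9.65) and, less so, in line 12 +D replicate 1 and line 5 +D replicate 2 (9.35 and 8.10). It was at or under 6.28 on all other arrays. The sample codes of the labels fell into an early and a late set, whose meaning is not given in the sources used here. Some arrays had a double code that joins an early and a late number, and these were counted as late. In +D this was line 5 replicate 3. In -D they were line 5 replicates 2 and 3, line 12 replicates 1 and 3 and line 15 replicate 1. So counted, 1 of 12 +D arrays and 9 of 12 -D arrays had late codes, while the control had early codes only.

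PPO1 was far higher in the inbred flies than in the control. It was at 9.91, 8.75 and 8.68 in line 5 +D and at 8.60, 8.91 and 8.14 in line 5 -D. It was at 10.34, 8.93 and 10.30 in line 7 +D and at 9.89, 9.96 and 9.10 in line 7 -D. Every one of these 12 arrays lay above 8, and both levels of depression overlapped in each line. In line 12 it was at 9.66, 8.56 and 8.65 in +D and at 8.13, 9.20 and 8.48 in -D, and in line 15 at 8.01, 9.06 and 9.31 in +D and at 8.79, 9.68 and 8.62 in -D. The outbred control had 4.72, 4.95 and 4.83. The lowest inbred array was thus more than 3 log2 units above the highest control array, and the line, the level or the subline moved PPO1 far less than the step to the control.

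**Figure D1:**
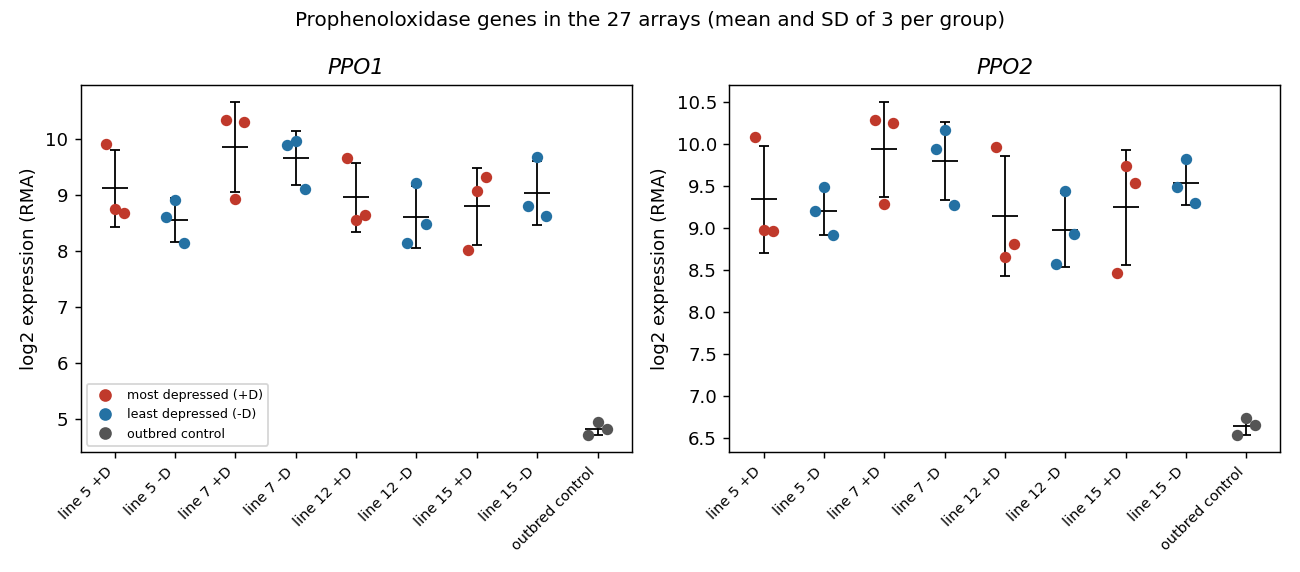
Log2 expression (vertical axis) of PPO1 and PPO2 in each of the 9 groups (horizontal axis), with points for the 3 arrays of a group and lines for their mean and SD. All 24 inbred arrays lie above all 3 control arrays for both genes, and +D and -D overlap in every line.

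On average PPO1 was at 9.07 ± 0.68 in the inbred arrays (SD, n = 24) and at 4.83 ± 0.12 in the control (SD, n = 3). The difference was 4.24 (SE 0.33), or 18.9-fold on the values as deposited. The control level of PPO1, and that of PPO2 given below, lay under the 7.06 of the filter, where it was not tested whether a reading differs from background, so the folds and the spread of the control hold for these values only. No other of the 9385 probe sets kept had a larger rise, and the next was 4.13. PPO2 was at 9.40 ± 0.55 in the inbred arrays, between 8.46 and 10.28, and at 6.54, 6.74 and 6.65 in the control. Its difference of 2.76 (SE 0.29), or 6.77-fold, was the fifth of all rises. In RNA of whole flies, more crystal cells and more RNA of these genes per cell cannot be told apart, and RNA of other tissues is in the same pool. The lz gene gave no reading on this, since its probe set was between 3.13 and 4.02 on every array, with 3.55 ± 0.20 in the inbred arrays (SD, n = 24) and 3.39, 3.34 and 3.59 in the control.

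The remaining genes stood much nearer to the control. NimB2 was 0.69 higher in the inbred arrays (SE 0.12), at 10.52 ± 0.31, against 9.83, 9.78 and 9.90 in the control. Its inbred arrays overlapped those of the control only through line 5 -D. Spn28Dc was 0.42 lower (a difference of -0.42, SE 0.17), with 7.69 ± 0.41 in the inbred arrays and 8.39, 7.88 and 8.07 in the control. The 12 -D arrays, of which the highest was 7.76, all lay below the control, as was so for 10.2% of probe sets. The +D arrays, between 7.61 and 8.78, overlapped the control. Of the -D arrays 9 had late codes, and the control had early codes only. The difference of -D from the control was -0.66 (SE 0.18). Over 11 alternatives, the set of codes as a covariate among them, it ran from -0.76 to -0.30. The plasmatocyte genes were close to their control levels. The differences were -0.11 (SE 0.13) for Hml, -0.28 (SE 0.18) for NimC1, 0.20 (SE 0.13) for eater and -0.06 (SE 0.11) for Pxn, beside a median of 0.11 over all probe sets kept. With Pxn, leaving out control replicate 3 turned the sign, to 0.01.

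**Figure D2:**
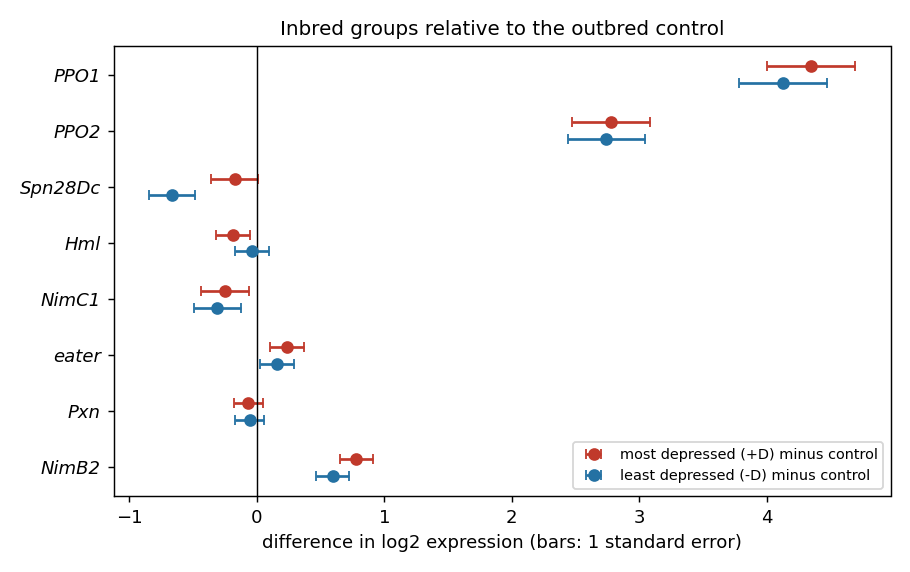
Difference in log2 expression from the outbred control (horizontal axis) for each of 8 genes (vertical axis), as the mean of the 4 +D groups and of the 4 -D groups, with bars of 1 standard error. PPO1 and PPO2 lie far to the right, and Spn28Dc is the gene whose +D and -D means lie farthest apart relative to their errors.

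This comparison chose PPO1. PPO1, PPO2 and eater passed the filter only through the inbred arrays. The next counts therefore describe these arrays and nothing is read from them. PPO1, PPO2 and NimB2, 3 of the 8 genes kept, were past an adjusted p of 0.05 with limma, where 43.8% of all probe sets kept were, 29.6% higher and 14.2% lower in the inbred arrays. For PPO1 and PPO2 all 24 inbred arrays were above all 3 of the control, which was so for 9.14% of probe sets. Of all probe sets past the threshold 67.5% were higher in the inbred arrays, and 49.4% were when each array was centred on its median. PPO1 and PPO2 were 4.15 and 2.67 higher in the inbred arrays with that centring. Without any 1 array the difference of PPO1 stayed between 4.18 and 4.30 and that of PPO2 between 2.71 and 2.81. Over the arrays of early codes alone, which include the control, PPO1 was 4.36 higher and PPO2 2.81 higher in the inbred arrays.

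The most and the least depressed sublines were then compared, a contrast that the choice of PPO1 did not use. The values of Spn28Dc and NimB2 in line 5 were known from an earlier look at these data. Line 5 is part of this contrast, so its results for both genes give no independent support. Only Spn28Dc was called, 1 of 8 genes, where 15.2% of all probe sets kept were, 6.25% higher and 8.94% lower in +D. The serpin was at 8.78, 8.66 and 7.63 in line 5 +D and at 7.40, 7.37 and 7.60 in line 5 -D. It was at 7.80, 7.69 and 8.57 in line 7 +D and at 7.76, 7.37 and 7.64 in line 7 -D. The +D arrays lay above the -D arrays in line 5, though narrowly for the nearest pair, and the groups overlapped in line 7. In line 12 it was at 7.63, 7.61 and 7.80 in +D and at 7.34, 7.34 and 7.35 in -D, and in line 15 at 7.75, 7.64 and 7.70 in +D and at 7.22, 7.52 and 7.46 in -D. In both of these lines all +D arrays were above all -D arrays. Groups that do not overlap were found for 18.8%, 11.6%, 27.1% and 14.7% of all probe sets in lines 5, 7, 12 and 15.

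Over the 4 lines Spn28Dc was at 7.94 ± 0.45 in +D and at 7.45 ± 0.15 in -D (SD, n = 12 each). The difference was 0.49 (SE 0.11, 95% interval 0.25 to 0.73), or 1.41-fold, with an adjusted p of 0.00518 with limma over all probe sets. An exact permutation test over the 160000 assignments of level within lines gave p = 3.75e-05 (two-sided). Line 5, whose values were known beforehand, is part of both tests. The differences in lines 5, 7, 12 and 15 were 0.90, 0.43, 0.34 and 0.29. Of the 8 genes, Spn28Dc and eater were higher in +D in each of the 4 lines, as were 13.9% of all probe sets, and for eater the 4 differences were 0.14 or less. Spn28Dc was also the gene that varied more among +D than among -D sublines by the largest ratio, with pooled SDs within groups of 0.40 in +D and 0.14 in -D. The high values of line 5 +D replicates 1 and 2 and of line 7 +D replicate 3 stood above the other 9 +D arrays, which were all at or under 7.80.

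The call of Spn28Dc depended on the sample codes. With the set of codes as a covariate the difference was 0.17 (SE 0.15, adjusted p = 0.633 with limma), and over the early codes alone, where only lines 7 and 15 hold both levels, it was 0.29 (SE 0.17, adjusted p = 0.807). In this last fit line 7 -D had a single array, which was taken to vary like those of the other groups. In lines 5 and 12 every -D array had a late code, double codes included. In these lines level and code set cannot be told apart wherever the +D arrays had early codes. This was so for all but line 5 +D replicate 3. That array, with a double code and eggshell transcripts, was the low one of line 5 +D, at 7.63. Without the 3 arrays with eggshell transcripts the difference was 0.63 (exact permutation p = 5e-05), and without any 1 array it stayed between 0.42 and 0.58, past the threshold each time.

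**Figure D3:**
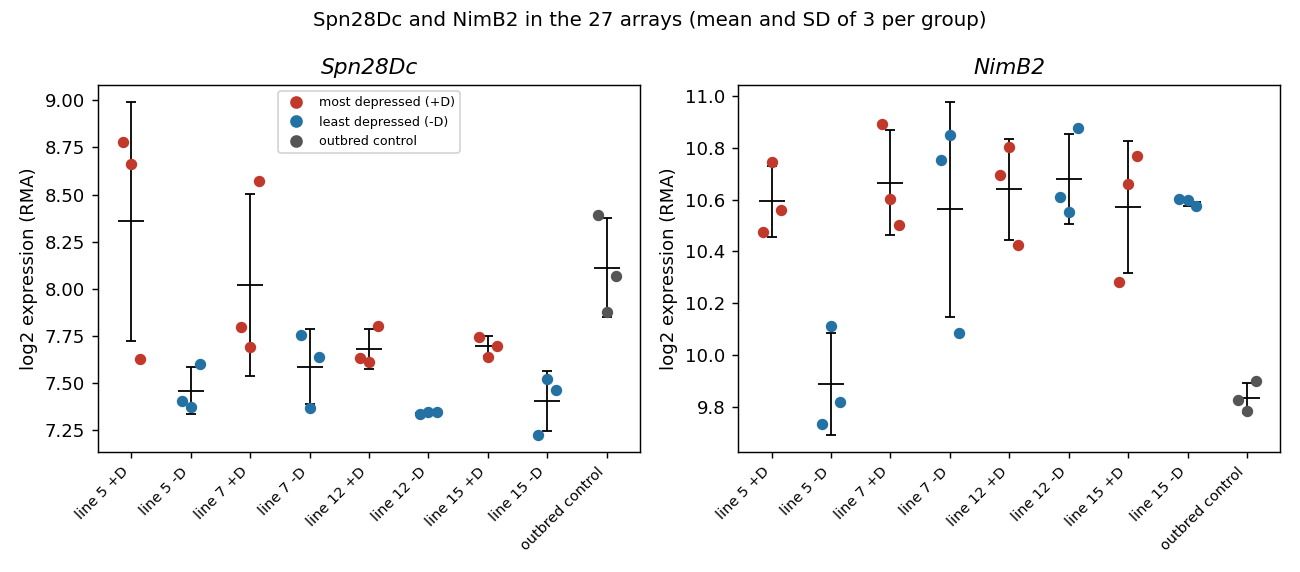
Log2 expression (vertical axis) of Spn28Dc and NimB2 in each of the 9 groups (horizontal axis), with points for the 3 arrays of a group and lines for their mean and SD. Spn28Dc is higher in +D than in -D by 0.29 to 0.90 in the 4 lines, and NimB2 is low in line 5 -D, at the level of the control, and high in line 5 +D.

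The other 7 genes did not pass the threshold between the levels of depression. PPO1 was at 9.18 ± 0.73 in +D and at 8.96 ± 0.63 in -D (SD, n = 12 each), a difference of 0.22 with a 95% interval of -0.23 to 0.67 (adjusted p = 0.568 with limma, exact permutation p = 0.363). For PPO2 the difference was 0.04, with an interval of -0.36 to 0.44. These intervals leave room for a difference between levels of up to 0.67 for PPO1, a small part of the 4.24 by which the gene stood above the control. Hml differed by -0.15 (-0.32 to 0.03), NimC1 by 0.06 (-0.18 to 0.30), eater by 0.08 (-0.10 to 0.25) and Pxn by -0.01 (-0.16 to 0.14). The sign of the small differences of PPO2, NimC1 and Pxn turned when single arrays were left out. The difference of NimB2 was 0.19 (0.01 to 0.36, adjusted p = 0.147 with limma, exact permutation p = 0.104), and that of lz was -0.01 (exact permutation p = 0.926).

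The difference of NimB2 was largest in line 5. The values of NimB2 and Spn28Dc in this line were known from an earlier look at these data, so the calls for it below describe them and give no independent support. It was at 10.48, 10.74 and 10.56 in line 5 +D, against 9.74, 10.11 and 9.82 in line 5 -D. The +D and -D arrays of this line did not overlap, as was so for 18.8% of all probe sets. Of the 3 -D arrays, 2 were within the range of the control, 9.78 to 9.90, or below it. In the other lines NimB2 was between 10.28 and 10.89 in +D and between 10.09 and 10.88 in -D. The difference for lines 5, 7, 12 and 15 was 0.71, 0.10, -0.04 and -0.02 (SE 0.17 each). NimB2 and Spn28Dc in line 5 were the only member values called within a line, with adjusted p of 0.0296 and 0.0428 with limma. With no filter these were 0.0471 and 0.0683, so that Spn28Dc was not called. Of all probe sets 2.04% were called for line 5, and 0.0107%, 4.68% and 1.49% for lines 7, 12 and 15. As for Spn28Dc, level and code set cannot be told apart for NimB2 in line 5, except through +D replicate 3. The test of whether the difference between levels depended on the line called 0 of the 8 genes with limma, and 0.0852% of all probe sets. NimB2 had the lowest p there, 0.014 before and 0.542 after adjustment, and was the 1 gene under 0.05 before adjustment.

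Among the 4 lines Hml was called, 1 of 8 genes with limma, where 12.1% of all probe sets were. Its means were highest in line 15, at 8.44 ± 0.18, followed by line 12 at 8.22 ± 0.11, line 7 at 8.03 ± 0.34 and line 5 at 7.97 ± 0.26 (SD, n = 6 each, adjusted p = 0.035), with 8.11, 8.37 and 8.35 in the control. Neighbours in this order overlapped in their single arrays, and lines 7 and 5 were closer than their SDs. In line 15 the +D arrays of Hml (8.18, 8.39 and 8.31) were all below the -D arrays (8.70, 8.55 and 8.51). Groups did not overlap in line 15 for 14.7% of all probe sets, and this difference was not called (adjusted p = 0.521 with limma). The call lay near the threshold. It was lost without any 1 of 10 arrays, namely line 5 +D replicate 3, line 5 -D replicates 1 and 3, line 7 -D replicates 1 and 3, line 12 -D replicate 3, line 15 +D replicates 2 and 3 and line 15 -D replicates 1 and 2, with adjusted p between 0.0511 and 0.0776. It was also lost with the replicate number as a block (adjusted p = 0.0558), without the 3 arrays with eggshell transcripts (0.0825), without these and the 2 -D arrays high in Yp1 (0.0934) and without all 7 inbred arrays with raised egg or yolk transcripts (0.231).

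**Figure D4:**
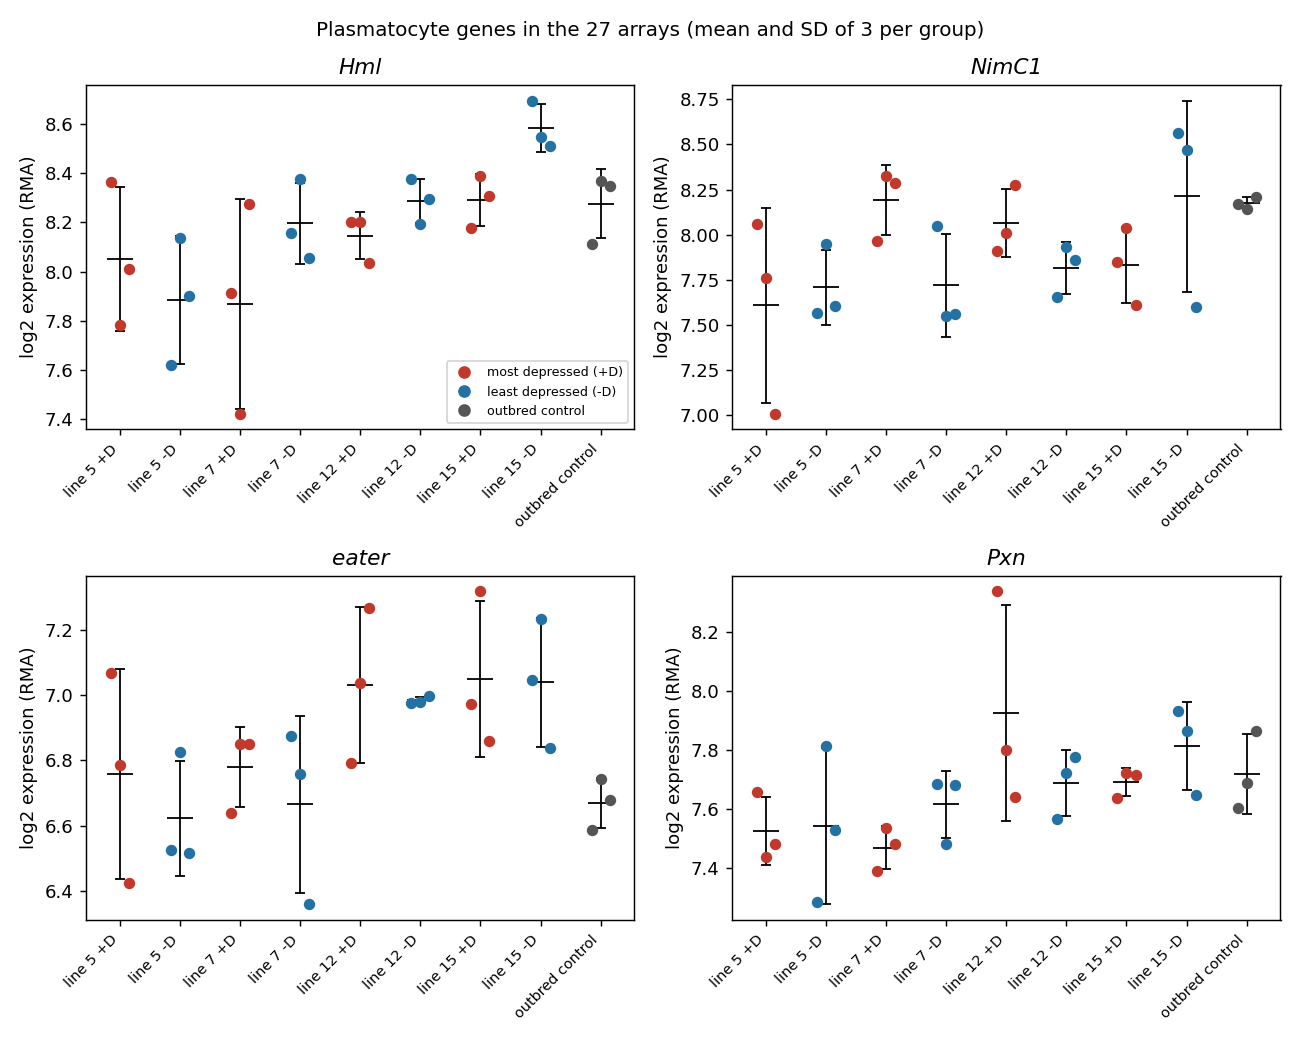
Log2 expression (vertical axis) of Hml, NimC1, eater and Pxn in each of the 9 groups (horizontal axis), with points for the 3 arrays of a group and lines for their mean and SD. Hml is highest in line 15 -D, and for all 4 genes the control lies within the range of the inbred arrays.

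The receptor eater had the same order of lines, with 7.04 ± 0.20, 7.01 ± 0.15, 6.72 ± 0.20 and 6.69 ± 0.24 for lines 15, 12, 7 and 5 (SD, n = 6 each), but did not pass the threshold (adjusted p = 0.0655 with limma). PPO1 was highest in line 7, at 9.75 ± 0.60, with 8.91 ± 0.58, 8.83 ± 0.59 and 8.78 ± 0.55 in lines 15, 5 and 12 (SD, n = 6 each), and did not pass either (adjusted p = 0.0829). The 3 lower lines differed by less than their SDs. PPO2 was also highest in line 7, at 9.87 ± 0.47, and lowest in line 12, at 9.06 ± 0.54 (adjusted p = 0.161). NimB2 had an adjusted p of 0.0543, with line 5 lowest at 10.24 ± 0.42 and the other lines between 10.58 and 10.66. Pxn was at 7.81 ± 0.27 in line 12 and 7.53 ± 0.18 in line 5 (adjusted p = 0.11). NimC1 was lowest in line 5, at 7.66 ± 0.37, and between 7.94 and 8.02 in the other lines, with an adjusted p of 0.335.

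PPO1 and PPO2 varied between sublines more than most probe sets. The SD of PPO1 within the inbred groups, pooled over the 8 groups, was 0.608, and that of the control arrays was 0.115. For PPO2 these were 0.534 and 0.1. The median over all probe sets kept was 0.167 in the inbred groups and 0.118 in the control, and the inbred SDs of PPO1 and PPO2 lay at percentiles 95.8 and 94.9. The 3 control arrays give a poor measure of their own spread. NimC1, at 0.324 in the inbred groups and 0.0357 in the control, had the closest control arrays of the 8 genes.

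Both prophenoloxidase genes went up and down together from subline to subline. With the group means taken out, r between PPO1 and PPO2 over the 24 sublines was 0.96 and Spearman's rho 0.93, with p = 3e-05 and 4e-05 by permutation within groups, adjusted over the 28 pairs of the 8 genes to 0.00084 and 0.00112. Without the 2 sublines farthest from the median of PPO1 r was 0.95, and over the 13 inbred sublines of early codes whose group held more than 1 of them it was 0.96 (adjusted p = 0.0753 by permutation). NimC1 and eater, both phagocytosis receptors of the Nimrod family, were the other pair that passed, with r = 0.82 and rho = 0.81 (adjusted p = 0.00098 and 0.0014 by permutation). For this pair r was 0.80 without the 2 farthest sublines, 0.89 over the early codes (adjusted p = 0.0314 by permutation) and 0.75 without the arrays with eggshell transcripts (adjusted p = 0.0353 by permutation). PPO1 and PPO2 were correlated with Hml at r = 0.56 and 0.57, which did not pass (adjusted p = 0.209 and 0.116 by permutation). The other 26 pairs did not pass, so that the crystal cell genes and the phagocytosis receptors formed separate pairs, with no test of whether their correlations differ. The 2 genes of a pair were read on the same arrays.

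**Figure D5:**
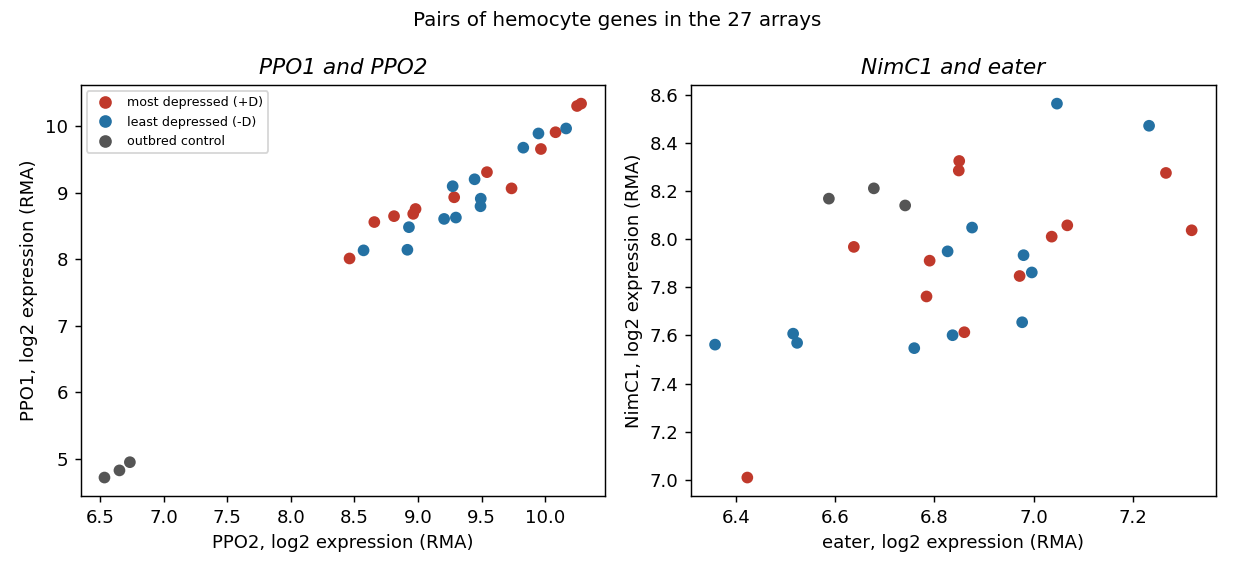
Log2 expression of PPO1 (vertical axis) against PPO2 (horizontal axis), and of NimC1 (vertical axis) against eater (horizontal axis), with a point for each of the 27 arrays coloured by +D, -D or control. The inbred points of PPO1 and PPO2 lie along a line far from the 3 control points, with r of 0.96 after group means were taken out, and those of NimC1 and eater scatter more, with r of 0.82.

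The probe sets most like PPO1 over the 24 inbred arrays, out of 8408 others with a single gene, were sought by Pearson's r on the values as they are. PPO2 came first, with r = 0.95, followed by CG6034 (0.78), CG5162 (0.76), Cyp12a4 (0.72), a cytochrome P450, and SecCl (0.71), a chloride channel. The mean of the inbred arrays was above that of the control for these 4 too, by 1.32 for CG6034, 0.97 for CG5162, 0.29 for Cyp12a4 and 0.65 for SecCl. The median of this difference over all probe sets kept was 0.11. For CG6034 and Cyp12a4 the lowest inbred arrays, at 4.674 and 9.725, lay below the control means of 4.839 and 9.958. The probe sets most like Hml were CG9173 (0.78), CG15536 (0.74), CG12729 (0.73), CG3841 (0.66) and CG5021 (0.66), and no other of the 9 genes was among them. These are the highest of many correlations over arrays that share lines, so their size is a description only.

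The genes beside PPO1 and PPO2 in the genome stood much nearer to the control. Of the 6 nearest genes of PPO1 with a probe set, 3 on each side by their order in the reference annotation, the differences of inbred arrays from the control ran from -0.28 for Elk to 0.30 for CG30325, against 4.24 for PPO1. Elk, CG14492 and CG14491 were below the filter, and the neighbours kept ran from 0.10 for CG30110 to 0.30. For PPO2 they ran from -0.34 for CG13743 to 0.85 for Ance-4, against 2.76 for PPO2. Of the neighbours of PPO2, CG8170 was below the filter. NimB2 and NimC1 belong to a cluster of Nimrod genes. Among its other members NimB3 differed from the control by 0.14, NimB4 by -0.18 and NimB5 by -0.08. Below the filter were NimB1 (0.33), NimA (-0.32 and -0.34) and NimC2 (-1.09). The Nimrod gene NimC4, kept by the filter but not among the neighbours read here, differed by -2.72. The 0.69 of NimB2 was thus not seen in the 3 cluster neighbours that passed the filter.

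The other genes of blood cells and of melanization were taken from lists. Of 33 further hemocyte genes, 20 probe sets were kept. Compared with the control, 4 of these 20 were higher and 9 lower in the inbred arrays with limma, 65.0% called beside 43.8% of all probe sets, with a median of -0.18 beside 0.11. The lower ones were led by the Nimrod receptor NimC4, at 6.72 ± 1.01 in the inbred arrays and 9.45 ± 0.21 in the control (difference -2.72), followed by the collagen IV genes vkg (-1.42) and Col4a1 (-1.35) and the laminin gene LanA (-0.99). The other 5 lower ones were msn, Tig, SPARC, drpr and Ppn. Collagen IV, laminin and SPARC are proteins of the basement membrane, and the fat body and other tissues make them besides hemocytes. The genes higher in the inbred arrays were atilla, the scavenger receptor Sr-CI, Itgbn and peb, by 0.27 to 0.60. Sr-CI and Itgbn were at 6.52 ± 0.11 and 6.38 ± 0.45 in the control (SD), under the 7.06 of the filter. They passed it only through the inbred arrays, where they were higher. Their calls, which are part of the 65.0%, are therefore a description only. When each array was centred on its median, 2 of the 20 were higher and 10 lower.

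Of 25 further genes of melanization and clotting, 20 had a probe set, and 16 probe sets were kept. Of these, 6 were higher and 5 lower in the inbred arrays than in the control, 68.8% called, with a median of 0.17. Tep4, a thioester protein, was at 10.33 ± 0.23 in the inbred arrays and 9.29 ± 0.27 in the control (difference 1.05), and the serine proteases SPE and Sp7, the last of which cleaves prophenoloxidase, were 0.55 and 0.40 higher. The Toll ligand spz, yellow-f2 and the serpin nec were the other 3 that were higher. The lower ones were led by stw (-2.09), the laccase of cuticle tanning that the list holds as laccase2, and by Pu (-1.21), needed for pteridines and tyrosine hydroxylation, and fon (-0.59), a clotting protein. Ddc and grass were lower too. With median centring 4 were higher and 5 lower.

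Between the levels of depression fewer genes of the lists were called. Of the hemocyte list 4 were higher and 1 lower in +D, 25.0% called beside 15.2% of all, with a median of 0.05 beside -0.01. These were atilla (0.23), the phagocytosis receptor drpr (0.23), NimB5 (0.20), msn (0.20) and, lower, peb (-0.21). Of the melanization list Tep4 (0.25) and Tg (0.19), the transglutaminase of the clot, were higher in +D, 12.5% called. None of these 7 was called with the set of sample codes as a covariate, with which 4.06% of all probe sets were. Without the 3 arrays with eggshell transcripts and the 2 -D arrays high in Yp1, 2 of the hemocyte list, NimB4 and drpr, and 0 of the melanization list were called, and without all 7 inbred arrays with raised egg or yolk transcripts 0 of both were, beside 8.55% of all probe sets. Within single lines and for the dependence on the line, 0 genes of either list were called with limma. Among lines, NimC4, Pvr and LanA of the hemocyte list and grass of the melanization list were called. This was 15.0% and 6.25% of the probe sets kept of each list, beside 12.1% of all. Without the 3 arrays with eggshell transcripts, Pvr alone of these was still called, and Itgbn was called besides.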

How the data were processed

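Total RNA of pooled whole males was hybridised to 27 arrays. The authors adjusted the background, quantile normalized and summarized with RMA (Partek Genomics Suite 7.3.3 and affy, per the submitters' notes), and the log2 values are used as deposited. A second deposited table, of the 24 inbred arrays, was an alternative. Arrays have no depth, so their number limits the precision.

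The 183 controls of the maker were left out. Of 18769 probe sets, 13647 match 1 gene, 402 several and 4720 none, and 13544 of the single ones matched the Release 6 reference, which was used for names and for the order of genes only. The upper 9385 by maximum were kept.

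Groups came from the labels. limma 3.58.1 in R 4.3.3 (lmFit, eBayes with a trend) fitted 1 mean for each of the 9 groups, with Benjamini-Hochberg adjustment over all probe sets kept and a threshold of 0.05. Exact permutations of level within lines and 100000 permutations for each correlation were run in Python 3.11.15 (scipy 1.17.1). The fit was tested on simulated data. No 2 arrays were identical. P-values measure only the spread between these samples. The members and lists were chosen with earlier results of these data known.

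Named were all members, up to 4 called genes of each list and comparison with the largest differences, and the 5 probe sets most like PPO1 and Hml. Others named beside these, among them the rest of the called list genes, the neighbours and the markers, were named after their values were seen. Of 20 egg and yolk genes 15 probe sets were kept, and 0 were called in any comparison with limma, with a median difference of 0.85 between +D and -D. Alternatives were the filter, the prior without trend, array weights, median centring, the replicate number as a block, the set of sample codes, leaving out arrays, and the table of inbred arrays. Replicate numbers did not pair sublines.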

Additional observations from a re-analysis of the deposited data

How the results depend on the processing

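Against the control, which chose PPO1 and is described only, 3 of the 8 genes were past the threshold. It was 5 with array weights, which added eater and Spn28Dc, beside 5738 of all probe sets, against 4114 without weights. With median centring and without the 3 or the 5 arrays with egg or yolk transcripts it was 4, which added Spn28Dc. Without 1 array it was 3 to 4. Between +D and -D it was 1, and 0 with the set of sample codes as a covariate and 0 over the early codes alone, which was chosen after seeing the data. Within lines it was 2, and 1 with no filter, with median centring, with the code covariate, without the 3 or the 5 arrays and in the table of inbred arrays, 0 without all 7 inbred arrays with raised egg or yolk transcripts, and 0 to 2 without 1 array. Leaving out these 7 was also chosen after seeing the data. Among lines it was 1, and 5 with array weights, 3 with median centring, 2 with the code covariate, 2 without the 3 arrays, 1 without the 5 arrays and 2 without the 7, where Hml was not among those called without the 3, 5 or 7 arrays, and 0 to 3 without 1 array. Of 28 correlations 2 passed, and 1 over the early codes.

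With the replicate number as a block, 1 gene was called within lines and 0 among lines, and the counts against the control (3) and between levels (1) did not move. The numbers hardly paired the sublines, as same-numbered +D and -D arrays of a line had a mean correlation of -0.11 over 12 pairs and other pairs 0.06 over 24.

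The difference between levels turned sign for NimC1 with array weights (-0.0067), for Pxn without the 5 or 7 arrays (0.0296 and 0.0055) and for Hml without the 7 (0.012). Without 1 array it ranged from -0.0153 to 0.136 for NimC1, from -0.0638 to 0.0237 for Pxn and from -0.0649 to 0.136 for PPO2. For Pxn against the control it ranged from -0.117 to 0.0139, positive without control replicate 3. None of these values was called. Over all probe sets, 1426 were called between levels, against 381 with the code covariate, 802 without the 7 arrays and 2 over the early codes. Within lines 771 were called, against 1422 with array weights, 285 with the code covariate, 460 without the 7 arrays and 425 and 453 without line 12 -D replicates 1 and 3. Among lines 1135 were called, against 1630 with array weights, 1114 with median centring and 993 with the code covariate. Without the 3, 5 and 7 arrays these were 953, 611 and 566. Against the control 4114 were past the threshold, 3575 with median centring, 4221 without the 3 arrays and 4119 without the 5. For the dependence on the line 8 were called, and 0 to 21 under the alternatives. The causes were not tested.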
